A study of Mus musculus with 6 samples.

Results

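The chemokines of the epidermis and inducible feedback genes of NF-kB signalling were followed in suprabasal keratinocytes that over-express spastin. The set holds 10 mouse genes chosen by name: Cxcl1, Cxcl2, Cxcl14, Cxcl16, Ccl20 and Ccl27a, the cytokine gene Tnf, and the feedback genes Tnfaip3, Nfkbia and Nfkbiz. All 10 were among the 35275 gene identifiers of the deposited table, and all 10 reached the mean of 1 FPKM over the 6 libraries needed for testing (FPKM, fragments per kilobase of transcript, scaled to sequencing depth). Ccl27a reached that mean through the control libraries. Spastin is an enzyme that severs microtubules, and the study asked what its expression in the differentiating layers does to the epidermis. K10-spastin (genotype K10rtTA;TREspastin) and control embryos were of the CD1 IGS strain. Doxycycline food was given to the dams from E14.5, the epidermis of the back skin was freed with dispase and trypsin at E16.5, and cells positive for the nuclear reporter H2B-GFP were sorted. In the K10-spastin line the keratin 10 promoter drives the doxycycline-dependent activator rtTA, which switches on both TRE-H2B-GFP and TRE-Spastin, so the sort takes keratin 10-expressing suprabasal cells. Each group had 3 independent RNA samples. Neither the transgenes of the control embryos nor the number of embryos behind a sample is stated.

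NF-kB is a family of transcription factors held in the cytoplasm by IkB proteins until receptors of TNF, interleukin-1 or microbial products trigger IkB destruction. Its targets include the neutrophil and dendritic cell attractants that keratinocytes release on injury, and also its own inhibitors, which end the response. Cxcl14 and the CCL27 chemokines differ from the injury-induced chemokines in that resting skin makes them constitutively.

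RefSeq promoter windows on GRCm38.p6, each 250 bases before and 50 bases after a transcription start, were at hand for 8 of the 10 genes (11 windows), but not for Cxcl16 and Nfkbiz. The 4 windows shown are those of the paired chemokines Cxcl1 and Cxcl2 and of the paired inhibitors Tnfaip3 and Nfkbia, so that the letters can be compared within each pair. Capitals mark matches to the NF-kB consensus on either strand, with overlapping matches merged. The Cxcl1 window is chr5:90890995-90891294 (plus strand), Cxcl2 is chr5:90903649-90903948 (plus strand), Tnfaip3 is chr10:19015361-19015660 (minus strand) and Nfkbia is chr12:55492598-55492897 (minus strand).
Cxcl1: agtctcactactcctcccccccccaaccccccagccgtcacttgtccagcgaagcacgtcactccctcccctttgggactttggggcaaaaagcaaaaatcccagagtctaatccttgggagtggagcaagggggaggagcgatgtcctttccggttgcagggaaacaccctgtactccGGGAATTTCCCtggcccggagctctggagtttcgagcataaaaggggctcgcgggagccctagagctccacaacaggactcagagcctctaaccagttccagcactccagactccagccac
Cxcl2: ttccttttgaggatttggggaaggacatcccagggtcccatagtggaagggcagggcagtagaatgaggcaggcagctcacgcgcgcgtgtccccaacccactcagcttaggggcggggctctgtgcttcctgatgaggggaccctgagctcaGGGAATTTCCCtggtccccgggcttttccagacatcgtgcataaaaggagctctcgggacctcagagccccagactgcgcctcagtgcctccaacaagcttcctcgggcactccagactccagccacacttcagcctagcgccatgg
Tnfaip3: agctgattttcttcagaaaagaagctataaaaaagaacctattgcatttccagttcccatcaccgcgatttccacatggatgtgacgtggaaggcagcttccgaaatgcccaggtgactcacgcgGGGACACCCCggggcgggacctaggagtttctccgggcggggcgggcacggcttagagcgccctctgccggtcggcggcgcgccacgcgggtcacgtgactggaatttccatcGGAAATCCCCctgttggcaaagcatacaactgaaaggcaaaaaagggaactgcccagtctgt
Nfkbia: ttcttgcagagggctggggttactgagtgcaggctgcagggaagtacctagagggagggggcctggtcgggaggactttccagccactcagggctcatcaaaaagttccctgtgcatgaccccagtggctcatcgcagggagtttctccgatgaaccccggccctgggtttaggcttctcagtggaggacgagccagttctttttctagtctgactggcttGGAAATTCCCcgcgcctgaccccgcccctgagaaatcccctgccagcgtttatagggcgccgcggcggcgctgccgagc
Cxcl1 and Cxcl2 carried the same run of letters, GGGAATTTCCC, from -71 to -61 in Cxcl1 and from -97 to -87 in Cxcl2, counted from the start. It holds 2 overlapping consensus matches, shifted by 1 base and read from opposite strands. Tnfaip3 held GGGACACCCC at -125 to -116 and GGAAATCCCC at -12 to -3, while Nfkbia held GGAAATTCCC at -29 to -20. Further consensus matches lay in the Ccl20 window (GGAAAACCCC, -80 to -71) and in 1 of the 3 Ccl27a windows. That brought the genes with a match to 6 of 8, and the windows with a match to 6 of 11. The consensus occurred in 8.46% of all 32851 mouse windows of 300 bases. A stricter form, with an A after the leading G run and TT before the closing C pair, was found in Cxcl1, Cxcl2 and Nfkbia and in 1.47% of all windows. No consensus match was found in the Tnf or Cxcl14 window, where Tnf had TATAAA at -29 to -24, a motif in 13.6% of all windows. These are descriptions of letters and not of bound sites.

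Depth recovered from the deposited values lay between 16008100 and 22487800 fragments a library, and 10342 to 11190 genes reached 1 FPKM. Spast itself was at 1431, 639 and 213 FPKM in the K10-spastin libraries, against 21.2, 24.0 and 21.4 FPKM in the controls (log2 change 4.65 ± 0.60 (SE), limma adjusted p = 0.00865), so the libraries matched their labels. The K10-spastin libraries differed 6.72-fold among themselves in Spast, in the order 1, 2, 3. The suprabasal keratins were abundant in every library: Krt10 was at 13075 to 17318 FPKM in K10-spastin cells, against 23698 to 32513 FPKM in control cells. In bulk RNA, fewer cells of a type and less RNA per cell cannot be told apart. Of the 11071 genes tested with limma on log2(FPKM + 1), 11.0% were called at an adjusted p under 0.05, 5.14% higher and 5.90% lower in K10-spastin cells.

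None of the 10 genes was called. At an unadjusted p under 0.05, limma picked 3 of the 10, all lower in K10-spastin cells (Ccl27a, Cxcl14 and Nfkbiz), a criterion that 31.5% of all tested genes met in either direction and 18.7% met as lower. The groups did not overlap in 2 of the 10, Cxcl14 and Ccl27a, against 40.4% of all tested genes. The log2 change was above 0 in 5 genes and below 0 in 5, with a median of 0.05, beside -0.09 over all genes tested. Read against those shares, neither count sets the 10 genes apart from the whole table.

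**Figure D1:**
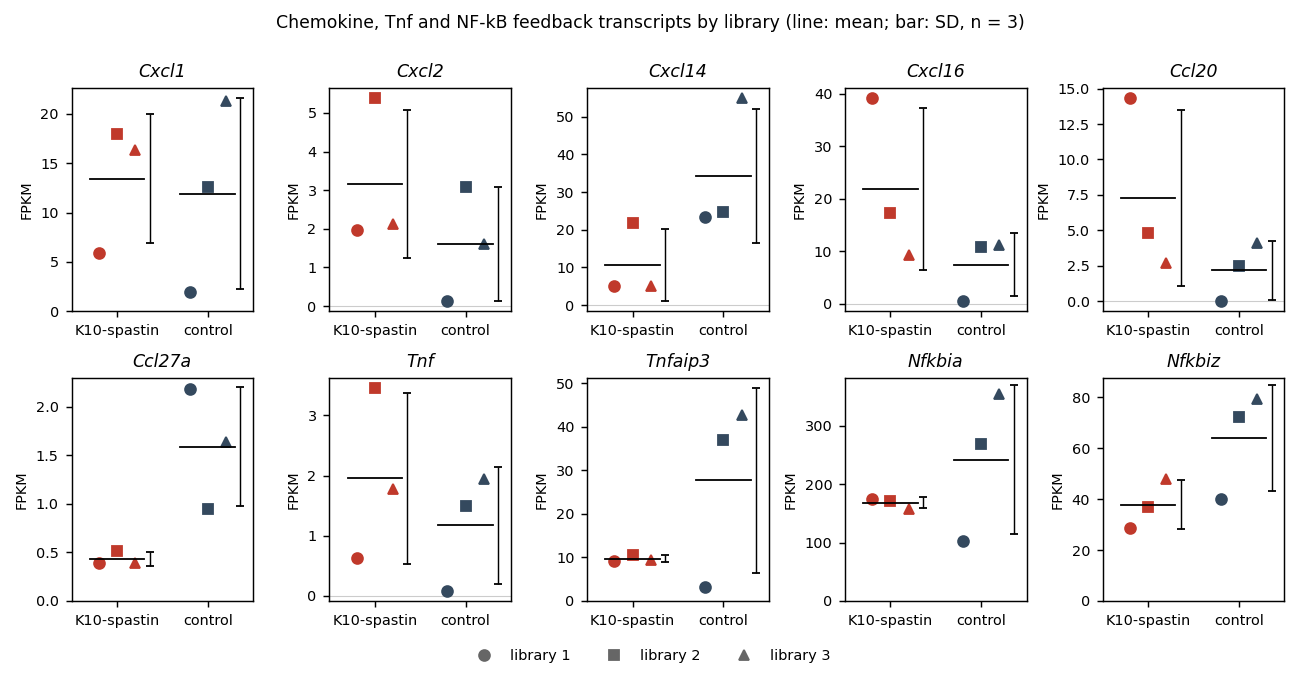
FPKM of each of the 10 genes (one panel each, own linear scale) in the 3 K10-spastin libraries (red, left) and the 3 control libraries (blue, right), with marker shape for the library number, a line at the mean and a bar for the SD (n = 3 a group). Control library 1 (blue circle) is the lowest control in 9 of the 10 panels, Ccl27a being the exception, and the groups stand apart only for Cxcl14 and Ccl27a.

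Cxcl1 and Cxcl2 are the mouse chemokines that draw neutrophils through the receptor Cxcr2. Cxcl1 was at 5.93, 18.0 and 16.4 FPKM in K10-spastin libraries 1, 2 and 3, against 1.91, 12.6 and 21.3 FPKM in control libraries 1, 2 and 3. Library 1 was the lowest of each group and the ranges overlapped almost fully. The means were 13.4 ± 6.54 FPKM in K10-spastin cells and 11.9 ± 9.71 FPKM in control cells (SD, n = 3 each). The log2 change was 0.46 ± 0.75 (SE), with a 95% interval of -1.31 to 2.22 and a limma adjusted p of 0.718, so neither a 2-fold fall nor a 4-fold increase lies outside what these libraries allow. Leaving out control 1 turned the sign, to -0.40.

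Cxcl2 was at 1.97, 5.38 and 2.13 FPKM in K10-spastin libraries, against 0.127, 3.08 and 1.60 FPKM in control libraries. K10-spastin 2 was the highest of all 6 and control 1 the lowest, while the other 4 lay between 1.60 and 3.08 FPKM. These values stand on few reads: whole steps in the FPKM give 36, 111 and 39 fragments in K10-spastin cells, against 3, 52 and 28 in control cells, as least numbers. For Cxcl2 the log2 change was 0.77 ± 0.51 (95% interval -0.43 to 1.97, limma adjusted p = 0.341), and 0.26 without control 1. Its near copy Cxcl3, with 90% identity over 561 aligned bases, was at or under 0.0599 FPKM everywhere. How the authors' counting split reads between the copies is not stated.

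Cxcl14 is a chemokine made constitutively by skin epithelium. It was at 5.06, 21.8 and 5.18 FPKM in K10-spastin libraries, against 23.4, 24.8 and 54.9 FPKM in control libraries. The groups did not overlap, but K10-spastin 2 lay just under the lowest control, whereas K10-spastin 1 and 3 were far below it. The means were 10.7 ± 9.63 FPKM in K10-spastin cells and 34.4 ± 17.8 FPKM in control cells (SD, n = 3 each), a ratio of 0.311. The fitted change was -1.79 ± 0.56 (SE) on the log2 scale (95% interval -3.11 to -0.47). The limma adjusted p was 0.0796, and 0.0148 before adjustment. It passed only without K10-spastin 2 (-2.42, adjusted p = 0.0269) and with libraries weighted by their quality (-2.08, adjusted p = 0.0192).

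Of 7 basal keratinocyte markers, 1 was called lower (Krt15) and 0 higher, against 5.90% lower and 5.14% higher over all tested genes. Of these markers, 5 had a log2 change below 0 and 2 above 0, and none was at 0 FPKM. Their summed level was 3962, 4774 and 2533 FPKM in K10-spastin libraries, against 7235, 4147 and 7235 FPKM in control libraries. Control 1 was level with control 3 in that sum, unlike in Cxcl14. A pair of the markers was picked after their values were seen. Col17a1, the hemidesmosome collagen of basal cells, was at 2.78, 26.1 and 5.41 FPKM in K10-spastin libraries, against 40.2, 25.5 and 63.2 FPKM in control libraries (log2 change -2.25 ± 0.70, limma adjusted p = 0.0774). Itga6, the basal integrin chain, was at 9.70, 17.0 and 7.06 FPKM in K10-spastin libraries, against 23.2, 15.0 and 30.9 FPKM in control libraries. Both were highest in control 3, and within the K10-spastin group both were highest in library 2, as was Cxcl14. Unlike for Cxcl14, however, their lowest control was control 2, and K10-spastin 2 lay above it, so the groups overlapped. Their part in the Cxcl14 difference was not tested.

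Cxcl16 is a membrane-anchored chemokine, shed by Adam10, that binds Cxcr6 on lymphocytes. It was at 39.1, 17.2 and 9.34 FPKM in K10-spastin libraries, against 0.521, 10.8 and 11.1 FPKM in control libraries. K10-spastin 1 and control 1 stood at the extremes, 4 libraries lay between 9.34 and 17.2 FPKM, and the groups overlapped. Within the K10-spastin group the order followed that of Spast, a description of 3 libraries. For Cxcl16 the log2 change was 1.71 ± 0.86 (95% interval -0.31 to 3.72, limma adjusted p = 0.219). It was 0.71 without control 1 and 0.20 without library 1 of both groups. Cxcl16 overlaps Zmynd15 on the opposite strand, which was at 0.598 to 1.29 FPKM in K10-spastin libraries, against 0.395 to 0.597 FPKM in control libraries.

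Ccl20, which recruits Ccr6-bearing dendritic and T cells, repeated that layout. It was at 14.3, 4.83 and 2.67 FPKM in K10-spastin libraries, against a listed 0, 2.45 and 4.13 FPKM in control libraries. The fragments behind these were at least 247, 94 and 46 in K10-spastin cells, against 0, 39 and 68 in control cells. A count of 0 allows up to 3 fragments. The fitted log2 change of Ccl20 was 1.40 ± 0.71 (95% interval -0.27 to 3.07, limma adjusted p = 0.222), and 0.14 without library 1 of both groups. Of 5 granular layer markers measured, 3 were higher (Ivl, Tgm1 and Cdsn) and 0 lower, against 5.14% higher and 5.90% lower over all tested genes. None of these markers was at 0 FPKM. Their sum was 3706, 3549 and 15041 FPKM in K10-spastin libraries, against 1328, 5388 and 4774 FPKM in control libraries. Control 1 was the lowest in this sum, as for Cxcl16 and Ccl20, but K10-spastin 3 was the highest, where Cxcl16 and Ccl20 were the lowest of their group. Ivl, an early envelope protein gene picked after its values were seen, was at 405, 192 and 113 FPKM in K10-spastin libraries, against 18.4, 63.3 and 35.1 FPKM in control libraries (log2 change 2.54 ± 0.55, limma adjusted p = 0.0321). Its K10-spastin libraries kept the order of Ccl20, but unlike for Ccl20 the groups did not overlap. Their part in the levels of Cxcl16 and Ccl20 was not tested. For both Cxcl16 and Ccl20, the sign stayed above 0 in every alternative run while the adjusted p never went under 0.147.

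Ccl27a, the skin chemokine read by Ccr10 on skin-homing T cells, was at 0.390, 0.519 and 0.390 FPKM in K10-spastin libraries, against 2.18, 0.951 and 1.64 FPKM in control libraries. All 3 K10-spastin libraries lay close together and below every control. The fragments were at least 4, 6 and 4 in K10-spastin cells, against 29, 9 and 16 in control cells. On the log2 scale Ccl27a differed by -0.83 ± 0.23 (SE; 95% interval -1.38 to -0.28). The limma adjusted p was 0.0622, and 0.00902 before adjustment. It was called with libraries weighted by quality (adjusted p = 0.0422) and without a variance trend (adjusted p = 0.0483). Ccl27a reached the mean of 1 FPKM only through the control libraries where it was high. Its direction, its separation of the groups and these calls are therefore no support for a fall. The value is uncertain for other reasons: Ccl27b (99.3% identity over 425 bases, listed at 0 everywhere) and 4 further near-identical predicted genes could share its reads. It also overlaps Il11ra1 on the opposite strand, which was at 1.19, 2.15 and 3.53 FPKM in K10-spastin libraries, against 4.73, 4.30 and 4.26 FPKM in control libraries. The use of strand in counting is not stated.

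Tnf, the cytokine that starts the canonical pathway, was at 0.632, 3.46 and 1.78 FPKM in K10-spastin libraries, against 0.0860, 1.49 and 1.95 FPKM in control libraries. Library 1 was again lowest in both groups and the ranges overlapped. At least 17, 105 and 48 fragments were counted in K10-spastin cells, against 3, 37 and 50 in control cells. Tnf gave a log2 change of 0.45 ± 0.48 (95% interval -0.69 to 1.58, limma adjusted p = 0.569) and 0.01 without control 1. Its receptor Tnfrsf1a was higher: 280, 276 and 239 FPKM in K10-spastin libraries, against 172, 189 and 194 FPKM in control libraries (log2 change 0.51 ± 0.12, limma adjusted p = 0.0397). The other receptor, Tnfrsf1b, stayed at or under 0.390 FPKM throughout.

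By mean FPKM, a level per transcript length, Nfkbia and Nfkbiz were the most abundant of the set in K10-spastin cells and in control cells, and over all 6 libraries the 3 feedback genes each had a log2 change below 0. Tnfaip3 encodes A20, the ubiquitin-editing enzyme that shuts off signalling below the TNF receptor. It was at 9.11, 10.6 and 9.33 FPKM in K10-spastin libraries, against 3.27, 37.0 and 42.7 FPKM in control libraries. The K10-spastin libraries agreed within 1.16-fold, whereas the controls spanned 13.1-fold, with control 1 below and controls 2 and 3 above all of them. The log2 change over all 6 libraries was -0.85 ± 0.82 (95% interval -2.77 to 1.07, limma adjusted p = 0.515). Without control 1 it was -1.94 ± 0.18 and was called (adjusted p = 0.0140). Over the 17 alternatives the log2 change of Tnfaip3 ran from -1.94 to -0.26. It was called in 2 of them, without control 1 and without library 1 of both groups, and not in the other 15.

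Nfkbia encodes IkB alpha, the inhibitor whose resynthesis returns NF-kB to the cytoplasm. It was at 175, 172 and 157 FPKM in K10-spastin libraries, against 103, 268 and 353 FPKM in control libraries. As with Tnfaip3, the K10-spastin libraries were tight (1.11-fold) and sat between control 1 and the other controls, which spanned 3.44-fold. Over all 6 libraries the log2 change was -0.35 ± 0.41 (95% interval -1.31 to 0.62, limma adjusted p = 0.608). It was -0.87 ± 0.17 without control 1 (adjusted p = 0.0489) and 0.01 without control 3.

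Nfkbiz encodes IkB zeta, a nuclear cofactor that drives a subset of late NF-kB targets in keratinocytes. It was at 28.8, 36.7 and 47.8 FPKM in K10-spastin libraries, against 40.2, 72.3 and 79.4 FPKM in control libraries. Only control 1 reached into the K10-spastin range. The means were 37.8 ± 9.56 FPKM in K10-spastin cells and 64.0 ± 20.9 FPKM in control cells (SD, n = 3 each). Nfkbiz thus had a log2 change of -0.72 ± 0.29 (SE; 95% interval -1.40 to -0.03). The limma adjusted p was 0.144, and 0.0427 before adjustment. It was called with quality weights (adjusted p = 0.0463) and without library 1 of both groups (-0.84, adjusted p = 0.0437), but not without control 1 alone (-1.02, adjusted p = 0.0657).

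**Figure D2:**
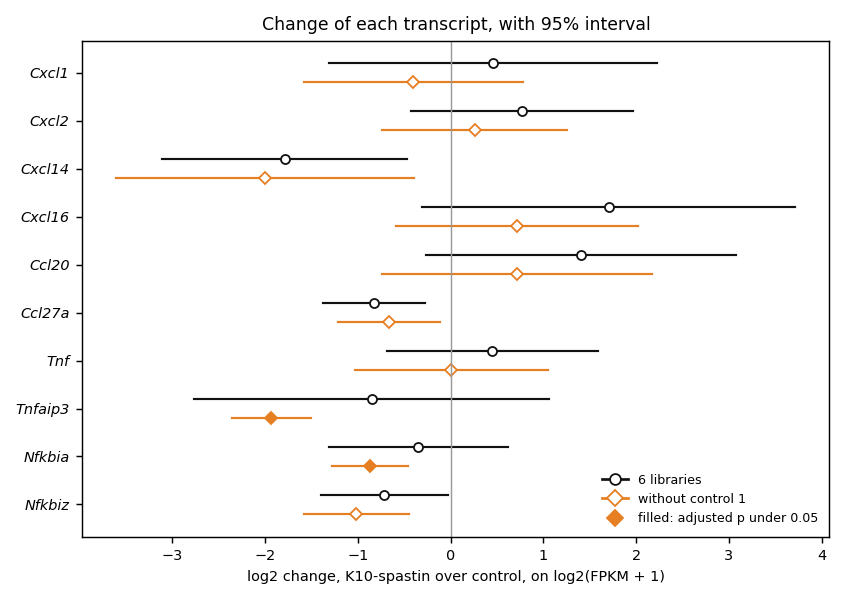
Log2 change, K10-spastin over control on log2(FPKM + 1), of each gene with its 95% interval from limma, for all 6 libraries (black circles) and without control library 1 (orange diamonds, filled where the adjusted p is under 0.05). No interval over 6 libraries belongs to a called gene, and leaving out control 1 shortens those of Tnfaip3 and Nfkbia, which are then called as lower at -1.94 and -0.87.

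Control library 1 was low for most of the set. It was the lowest control in 9 of the 10 genes, the exception being Ccl27a, and the lowest of all 6 libraries in 7. It was under 0.5 times the lower of the other controls in 7 of the 10 (Cxcl1, Cxcl2, Cxcl16, Ccl20, Tnf, Tnfaip3 and Nfkbia), against 3.95% of all tested genes. Expressed against the mean of controls 2 and 3, control 1 had 4.76% of Cxcl16, 5.40% of Cxcl2, 8.19% of Tnfaip3, 11.3% of Cxcl1 and 33.1% of Nfkbia. Control 1 was the deepest library, and its number of genes at 1 FPKM, 10994, lay within the range of the others. This comparison of control 1 with the rest was chosen with the values known. Among the K10-spastin libraries, library 1 was the highest in 3 of the 10 (Cxcl16, Ccl20 and Nfkbia), against 19.9% of all tested genes, and library 2 was the highest in 6.

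Without control 1, 2 of the 10 were called lower (Tnfaip3 and Nfkbia) and 0 higher, against 4.06% of all tested genes called in that comparison, 2.08% lower and 1.98% higher. For both genes control 1 lay below every other library, so leaving it out could only lower their log2 change. That count is therefore no support for a fall of the set. Without library 1 of both groups, an alternative chosen after seeing the data, 3 were called lower (Nfkbiz too) and 0 higher, against 11.4% of all genes called, 5.65% lower and 5.73% higher. No gene of the set was called higher in any alternative.

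**Figure D3:**
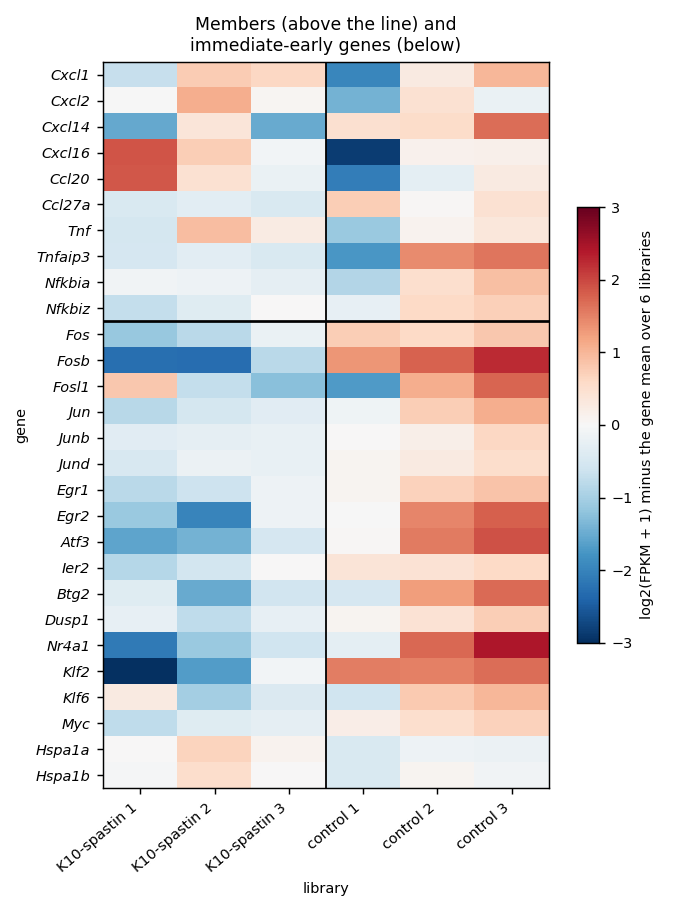
Heat map of log2(FPKM + 1) minus the mean of the gene over 6 libraries (colour, blue low and red high) for the 10 genes (above the horizontal line) and 18 immediate-early genes (below it), with the 3 K10-spastin libraries left of the vertical line and the 3 control libraries right of it. Control 1 is the bluest column for Cxcl1, Cxcl2, Cxcl16, Ccl20, Tnf, Tnfaip3 and Nfkbia, and K10-spastin 1 the reddest for Cxcl16 and Ccl20.

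Profiles over the 6 libraries separated the set further. By Pearson correlation of log2(FPKM + 1), a description over 6 libraries that share their preparation, the tested genes nearest to Tnfaip3 were Spry1 (r = 0.992), a feedback inhibitor of receptor tyrosine kinases, Irs2 (0.990), an insulin receptor substrate, and Junos (0.985). Nearest to Nfkbia were Slc25a25 (0.983), Egr3 (0.983) and Tnfaip3 itself (0.982). Egr3, an immediate-early transcription factor, was at 71.9, 52.6 and 52.0 FPKM in K10-spastin libraries, against 27.9, 136 and 159 FPKM in control libraries, the same layout as Tnfaip3.

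Cxcl16 ran closest to Plet1 (0.997), Trim16 (0.995) and the protease inhibitor gene Spint1 (0.995), and Spint1 was also nearest to Ccl20 (0.989). Plet1 was at 159, 75.4 and 36.2 FPKM in K10-spastin libraries, against 3.63, 35.5 and 44.1 FPKM in control libraries. Like Cxcl16 and Ccl20, it was highest in K10-spastin 1 and lowest in control 1. Cxcl14 ran closest to Npnt (0.998), Mdk (0.988) and Hspg2 (0.986), which encode a basement membrane ligand of integrins, a growth factor and perlecan. Npnt was near the floor, at 0.0789 and 0.197 FPKM in K10-spastin 1 and 3. Ccl27a ran closest to Plppr3 (0.992), Cwc22 (0.991) and Acvrl1 (0.991). Genes near Nfkbiz included Dmxl1 (0.994) and Azin1 (0.989). For Cxcl1, Cxcl2 and Tnf the nearest genes depended on scaling: the r of Cxcl1 with Rnpc3 was 0.966 as deposited and 0.403 after quantile normalisation.

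Receptors of the chemokines were at low levels, at or under 4.97 FPKM in every library for Cxcr2, Ccr10, Ccr6 and Cxcr6. Cxcr2, the receptor of Cxcl1 and Cxcl2, was at 3.37, 1.90 and 0.635 FPKM in K10-spastin libraries, against 0.0507, 0.0712 and 0.0459 FPKM in control libraries. All 3 K10-spastin libraries lay above every control, with at least 154, 98 and 29 fragments, against 3, 3 and 2 in control cells. The log2 change was 1.38 ± 0.35 (limma adjusted p = 0.0492), past the threshold in 6 of 16 alternatives and in none that leaves out a control. Cxcr2 reached the mean of 1 FPKM only through the K10-spastin libraries where it was high, as Ccr10 did only through the control libraries, so neither call supports a difference of the receptors as a class. The other 6 of 7 neutrophil markers were under 1 FPKM in every library, with Ly6g and Elane listed at 0 throughout; the summed level was 0.679 to 3.47 FPKM in K10-spastin cells, against 0.125 to 0.247 FPKM in control cells. Cxcr2 made up most of that sum in the K10-spastin libraries but not in the controls.

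Ccr10, the receptor of Ccl27a, was at 0.668, 1.42 and 0.501 FPKM in K10-spastin libraries, against 4.97, 3.08 and 3.36 FPKM in control libraries (log2 change -1.38 ± 0.26, limma adjusted p = 0.0224). The groups did not overlap, and the call was lost without any single control library (adjusted p = 0.0643 to 0.0851). The T cell genes Cd3d, Cd3e and Trac were listed at 0 in every library, and the sum of the 6 T cell markers measured was 0.958 to 3.62 FPKM in K10-spastin cells, against 1.05 to 2.08 FPKM in control cells. Ccr6, the receptor of Ccl20, was listed at 0 throughout, and Cxcr6, the receptor of Cxcl16, stayed at or under 0.191 FPKM. Of 22 chemokine receptors, 4 were tested, with a median log2 change of -0.87. Of these, 1 was higher (Cxcr2) and 1 lower (Ccr10), against 5.14% higher and 5.90% lower over all tested genes.

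Of 31 other chemokine genes, 28 stayed under 1 FPKM in every library and 9 of these were listed at 0 throughout. The 3 tested ones had a median log2 change of -1.18 and none was called. The membrane-bound chemokine Cx3cl1 was at 6.05, 20.8 and 21.0 FPKM in K10-spastin libraries, against 42.1, 26.6 and 32.1 FPKM in control libraries (log2 change -1.18 ± 0.44, limma adjusted p = 0.119). Cxcl10, an interferon- and NF-kB-induced T cell attractant, was at 0.326, 1.59 and 1.14 FPKM in K10-spastin libraries, against 0.126, 7.51 and 10.9 FPKM in control libraries. Its layout was that of Tnfaip3, and its log2 change of -1.32 ± 0.83 (adjusted p = 0.319) became -2.37 without control 1 (adjusted p = 0.0291). Control 1 was the lowest of all 6 libraries for Cxcl10, so leaving it out could only lower the change. That call is no support for a fall. The fragments were at least 2 in control 1 and 4 in K10-spastin 1.

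Calls among genes of the surrounding pathway, to be read against the 11.0% of all tested genes called, were often lost with a library left out. Followed in this way were 13 called genes outside the set (Spast, Tnfrsf1a, Cxcr2, Ccr10, Bcl3, Myd88, Irak3, Trib3, Il1a, Pdgfb, Zfp36, Fosb and Fos). Other called genes, such as Ivl, Tnip1 and Birc2, were not part of this count. Of the 13, 4, 3 and 2 were called without control 1, 2 and 3, and 10, 9 and 13 without K10-spastin 1, 2 and 3. Fosb and Spast were called in each of these 6 cases. Of 15 tested NF-kB subunits, IkB proteins and kinases, 1 was higher and 0 lower, with a median log2 change of 0.02. The higher one was Bcl3, a nuclear IkB protein that works with p50 and p52 dimers, at 94.7, 96.4 and 23.2 FPKM in K10-spastin libraries, against 6.37, 9.36 and 15.0 FPKM in control libraries (log2 change 2.51 ± 0.56, limma adjusted p = 0.0350). All 3 K10-spastin libraries exceeded every control. Rela, the main activating subunit, was at 69.1, 66.7 and 50.3 FPKM in K10-spastin libraries, against 33.6, 45.3 and 43.8 FPKM in control libraries (log2 change 0.59 ± 0.18, adjusted p = 0.0774).

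Of 16 tested TNF, interleukin-1 and Toll-like receptors and adaptors, 2 were higher and 0 lower, with a median of 0.21. Beside Tnfrsf1a the other was Myd88, the adaptor of interleukin-1 and Toll-like receptors, at 36.6, 37.2 and 31.7 FPKM in K10-spastin libraries, against 20.8, 20.1 and 19.5 FPKM in control libraries (log2 change 0.77 ± 0.13, limma adjusted p = 0.0175). Both groups were tight for Myd88, and control 1 did not stand apart.

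Among 15 tested genes of a list of further inhibitors and other regulators of the pathway, 3 were higher (Tnip1, Irak3 and Trib3) and 1 was lower (Birc2), with a median of -0.07. Irak3, which blocks the Myd88 complex, was at 30.7, 10.6 and 5.46 FPKM in K10-spastin libraries, against 0.152, 0.427 and 0.472 FPKM in control libraries (log2 change 3.31 ± 0.53, limma adjusted p = 0.0149). Irak3 reached the mean of 1 FPKM only through the K10-spastin libraries where it was high, so its call is no support for a change of the list. Its order within those libraries was again that of Spast. Trib3, a stress-induced pseudokinase, was at 66.3, 42.1 and 28.3 FPKM in K10-spastin libraries, against 9.43, 9.41 and 8.58 FPKM in control libraries (log2 change 2.12 ± 0.29, adjusted p = 0.00974).

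Of 17 tested other NF-kB targets, 2 were higher (Il1a and Nod2) and 1 lower (Pdgfb), with a median of 0.33. Both Il1a and Nod2 reached the mean of 1 FPKM only through the K10-spastin libraries where they were high, so their count is no support for a change of the list. Il1a, the alarmin stored by keratinocytes, was at 4.29, 2.05 and 8.67 FPKM in K10-spastin libraries, against 0.0225, 0.443 and 0.490 FPKM in control libraries (log2 change 2.05 ± 0.42, limma adjusted p = 0.0271). Control 1 was under 0.5 times the lower of the other controls in 6 of the 17, against 3.95% of all tested genes. Of 9 genes for chemokine and TNF mRNA decay and shedding, 1 was lower and 0 higher. Zfp36, which encodes tristetraprolin, the protein that destabilises Tnf and Cxcl1 mRNA, fell to 301, 328 and 420 FPKM in K10-spastin libraries, against 623, 1095 and 1353 FPKM in control libraries (log2 change -1.49 ± 0.29, adjusted p = 0.0232).

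**Figure D4:**
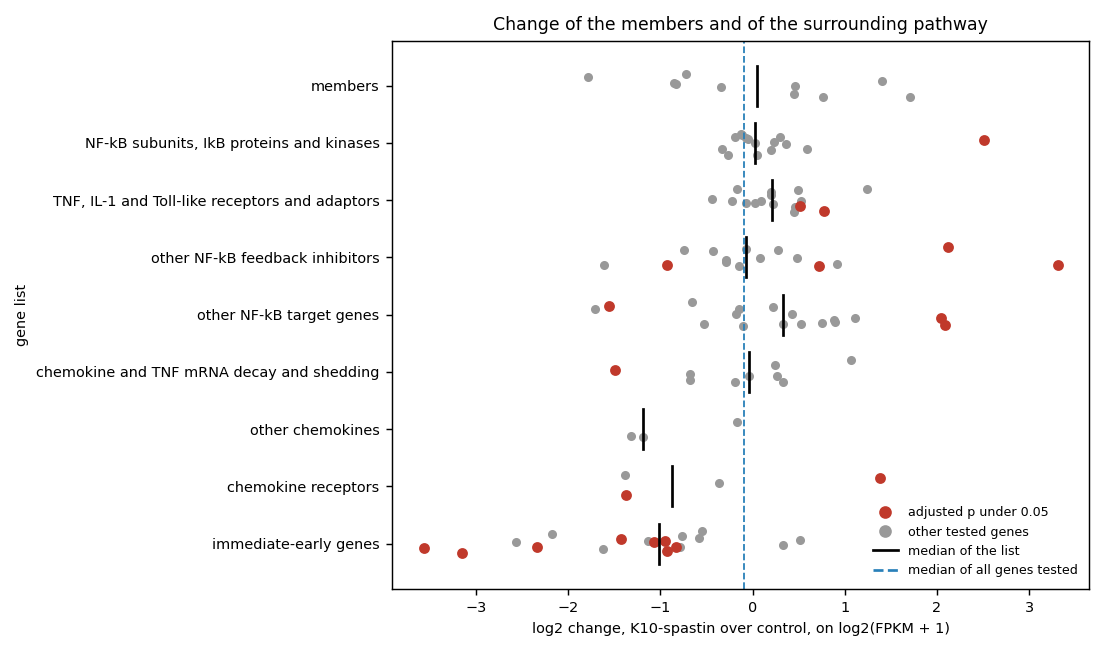
Log2 change, K10-spastin over control on log2(FPKM + 1), of every tested gene (points, 1 row for each list) in the 10-gene set and 8 surrounding lists, red where the limma adjusted p is under 0.05, with the median of each list (black bar) and of all tested genes (dashed line, -0.09). The 10 genes spread to both sides with no red point. Of the 18 immediate-early genes 8 are red, all below 0, against 5.90% of all tested genes called lower.

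Immediate-early genes, a class of fast-induced transcripts to which Nfkbia, Tnfaip3 and Zfp36 are close in kinetics, were tested because enzymatic release and sorting of cells can also induce them. Of 18 tested, 8 were lower and 0 higher in K10-spastin cells, against 5.90% lower and 5.14% higher over all tested genes. Their median log2 change was -1.01, beside -0.09 over all genes. Fosb was at 38.2, 37.5 and 107 FPKM in K10-spastin libraries, against 472, 639 and 893 FPKM in control libraries (log2 change -3.57 ± 0.43, limma adjusted p = 0.00712). For Fosb, control 1 was above every K10-spastin library, unlike for Tnfaip3 and Nfkbia. Control 1 was nevertheless under 0.5 times the lower of the other controls in 6 of the 18, against 3.95% of all tested genes. The part of sample handling in the levels of the 10 genes was not tested.

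Markers of other cell types moved with some of these layouts. The sum of 7 fibroblast markers was 0.791, 3.03 and 2.25 FPKM in K10-spastin libraries, against 6.44, 22.5 and 42.3 FPKM in control libraries. Control 1 was the lowest control, as in most of the set, but lay above every K10-spastin library. In 7 of the 10 genes it was instead the lowest of all 6 libraries. Of the 4 tested fibroblast genes 1 was called lower (Dcn), against 5.90% of all tested genes. No marker was at 0 in all libraries. As a group these 4 passed the mean of 1 FPKM mainly through the control libraries, so their lower direction is no support for a difference. Col1a1, the defining fibroblast collagen, was at 0.0324 to 0.0647 FPKM in K10-spastin cells, against 0.724, 8.42 and 13.3 FPKM in control cells. The sum of 6 melanocyte markers was 1.91, 23.8 and 2.82 FPKM in K10-spastin libraries, against 4.20, 9.35 and 15.6 FPKM in control libraries, highest in K10-spastin 2, where Cxcl2 and Tnf were also highest. The sum of 6 leukocyte markers was 2.99, 8.93 and 2.28 FPKM in K10-spastin libraries, against 2.59, 4.40 and 5.14 FPKM in control libraries. The Langerhans cell marker Cd207 was listed at 0 in all 6. Of 11 Langerhans cell and macrophage markers, the lysosomal gene Cd68 alone was tested, at 39.0, 17.9 and 12.6 FPKM in K10-spastin libraries, against 10.7, 4.73 and 4.01 FPKM in control libraries, and it made up most of their sums (13.4 to 40.2 FPKM in K10-spastin cells, against 6.62 to 10.9 FPKM in control cells). The sums of the Merkel cell markers were 2.61 to 4.87 FPKM in K10-spastin cells, against 2.93 to 5.83 FPKM in control cells, and those of the mast cell and endothelial markers stayed at or under 1.26 FPKM. Of 8 suprabasal markers, 1 was higher (Calm4) and 1 lower (Krt10), against 5.14% higher and 5.90% lower over all tested genes. The part of these cells in the levels of the 10 genes was not tested.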

How the data were processed

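RNA of sorted cells was sequenced in 6 libraries, 3 per group. The authors deposited FPKM per Ensembl gene in 1 table; the submitters' processing notes list CASAVA and TopHat2 with no role or version, and name no counting program, genome build or strand setting. Because FPKM values are not counts, no count model was used. Most low values (90.5% to 91.5%) were whole multiples of a step within 0.05 fragments, which gave each library's depth. Symbols were matched to 34490 of 35275 identifiers through GENCODE release M21. The test took the 11071 genes averaging 1 FPKM or more, on log2(FPKM + 1), with limma 3.58.1 in R 4.3.3 (moderated variances with a trend) and Benjamini-Hochberg adjustment over all of them; calls needed an adjusted p below 0.05. The log2(FPKM + 1) scale understates changes of low genes. Fragments of low genes were read as the smallest whole numbers that fit the 6 values within 0.1, and cover counting error only. Exact permutation of 3 against 3 libraries cannot give a two-sided p under 0.1 and was not used. The labels do not say whether samples came from separate litters, so the p-values cover only the spread between these samples, which may be technical.

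Genes with like copies were found by BLAST 2.17.0 (at least 90% identity over 200 bases). Promoter windows were taken from RefSeq (GRCm38.p6). The 10 genes, the 8 pathway lists and the 12 marker lists were chosen with earlier results of these data known. Named genes were all 10, and from each pathway list the 2 called genes with the smallest p, the 2 with the highest mean, and the receptors and copies of the 10; Col17a1, Itga6, Col1a1, Ivl and Cd68 were named after their values were seen. Pseudocounts of 0.1 and 0.5, no filter, a filter at 5 FPKM, 2 other scalings, 3 other variance models, a replicate block and leaving out each library were tried, and 1 alternative was added. The test was checked on simulated data. Trdc and Flg were not analysed here.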

Additional observations from a re-analysis of the deposited data

How the results depend on the processing

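None of the 10 genes was called over all 6 libraries, and none was called higher in any of the 17 alternatives. Called lower were 1 without a variance trend (Ccl27a), 3 with quality weights (Ccl27a, Cxcl14 and Nfkbiz), 3 without library 1 of both groups (chosen after seeing the data), and 0 to 2 when a single library was left out. Of all 11071 tested genes, 1771 were called lower with quality weights. The shares called lower were 5.65% without library 1 of both groups and 2.08% without control 1. The share without a variance trend is not given here. Ccl27a passed the filter only through the control libraries. Over all genes, 569 were called higher and 653 lower. These counts were 319 and 348 with no filter, 1535 and 1771 with quality weights, 274 and 218 with the replicate block, and 113 to 691 and 32 to 701 with 1 library left out; the filter at 5 FPKM gave 414 lower. That filter removed Cxcl2, Ccl20, Ccl27a and Tnf.

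Whether replicate numbers pair the libraries is not stated. Deviations of same-numbered libraries from their group means correlated at -0.13, -0.38 and -0.05. Deviations from a mean of 3 libraries constrain each other, so these values cannot tell whether a litter or day was shared. The replicate block called none of the 10. Signs turned for log2 changes near 0. With 1 library left out (or library 1 of both groups), the log2 change of Cxcl1 ran from -0.40 to 1.07 and that of Nfkbia from -0.90 to 0.015. In the same way Tab2 ran from -0.0053 to 0.11, Irak1 from -0.28 to 0.13 and Plau from -0.34 to 0.016. Those of Gadd45b ran from -0.036 to 0.58, Tollip from -0.057 to 0.38 and Tax1bp1 from -0.038 to 0.12. Under quantile normalisation the log2 change of Tab2 was -0.012 and that of Tax1bp1 -0.015. With quality weights the log2 change of Irak1 was 0.051 and that of Tax1bp1 -0.021. Median-of-ratios scaling gave 3.83e-04 for Plau. The causes were not tested. The median of all genes was -0.09 as deposited, 0.01 after median-of-ratios scaling and -0.04 after quantile normalisation. Of the 13 called genes followed outside the set, 2 (Fosb and Spast) remained called whichever library was left out. Values for Cxcl2, Tnf and Ccl27a rest on as few as 3 or 4 fragments in a library.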
